A study of Spinacia oleracea with 12 samples.

Results

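The ascorbate oxidase genes Spo12052 and Spo12053 of spinach (Spinacia oleracea) were followed across leaf laminae and roots of a high-oxalate and a low-oxalate genotype. They are 2 of the 25495 genes in the deposited table, and were taken by their gene identifiers alone. Each of the 12 libraries held a value above 0 for both genes. The study set the accession PI175311, high in oxalate, against the variety Bloomsdale, low in oxalate, to learn which steps of oxalate metabolism differ between them. RNA was sequenced from leaf of PI175311, leaf of Bloomsdale, root of PI175311 and root of Bloomsdale, with 3 libraries in each of the 4 groups. All plants were 6 weeks old, were grown in a chamber at 23 °C and received no treatment that differed between genotypes. The growth labels name a fertiliser held at 200 ppm nitrogen, whereas the study's methods name a nitrogen-free nutrient solution, so the nutrition shared by all groups could not be settled. Each genotype was represented by 1 accession or variety, and replicates were separate plants.

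Ascorbate oxidase is a copper enzyme of the cell wall space that uses oxygen to oxidise ascorbate, the plant form of vitamin C. Ascorbate peroxidase, working mainly inside the cell, oxidises ascorbate as well, but spends it on the removal of hydrogen peroxide. Both reactions lead to dehydroascorbate, which can be broken down further to oxalate and threonate, and this is why both enzymes are looked at in a plant as rich in oxalate as spinach. In tobacco and oilseed rape, the wider family also holds genes resembling ascorbate oxidase that are transcribed in pollen. The files pair neither gene with a sequence or a subtype, and the name ascorbate oxidase is the study's annotation.

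The solved totals of the libraries ran between 18451262 and 25245734 fragments. Values are FPKM, fragments scaled by gene length and library total, so levels can be set side by side between genes. The gene length behind the FPKM was 1605 bases for Spo12052 and 1677 bases for Spo12053. Replicates correlated at 0.938 to 0.989 within groups, over log2(FPKM + 1) of all genes, and no libraries were alike within sampling noise. Few spinach genes carry a name in the sources used, so the tissue labels were checked with 127 leaf genes chosen on the Bloomsdale libraries alone, each with at least 50 FPKM in every Bloomsdale leaf and at least 100 times the highest Bloomsdale root. These genes held 11.1% to 17.8% of all FPKM in PI175311 leaves, against 0.0846% to 0.270% in PI175311 roots, as the labels have it. The 109 root genes chosen in the same way held 0.0106% to 0.0185% in PI175311 leaves and 5.87% to 8.52% in PI175311 roots. In tissue RNA, fewer cells of a type and less RNA per cell cannot be told apart.

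Both ascorbate oxidase genes were most abundant in the leaf of PI175311. Spo12052 had 60.8, 58.6 and 37.3 FPKM in PI175311 leaves, against 3.48, 7.74 and 12.0 FPKM in Bloomsdale leaves. Spo12053 had 89.9, 83.6 and 56.1 FPKM in PI175311 leaves, against 5.65, 13.7 and 17.6 FPKM in Bloomsdale leaves. For both genes every PI175311 leaf was above every Bloomsdale leaf. Leaf 3 was the lowest of its group in PI175311 and the highest of its group in Bloomsdale. How many of all tested genes separate the groups in this way, here or in the comparisons below, was not counted. The lowest PI175311 leaf exceeded the highest Bloomsdale leaf 3.11-fold for Spo12052 and 3.18-fold for Spo12053. In roots the levels were lower. Spo12052 had 13.9, 1.38 and 0.696 FPKM in PI175311 roots, against 4.43, 3.02 and 1.80 FPKM in Bloomsdale roots. Spo12053 had 24.6, 2.198 and 0.852 FPKM in PI175311 roots, against 6.96, 4.23 and 2.62 FPKM in Bloomsdale roots. The roots of the genotypes overlapped, since root 1 of PI175311 was above all Bloomsdale roots while roots 2 and 3 of PI175311 were below all of them.

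**Figure D1:**
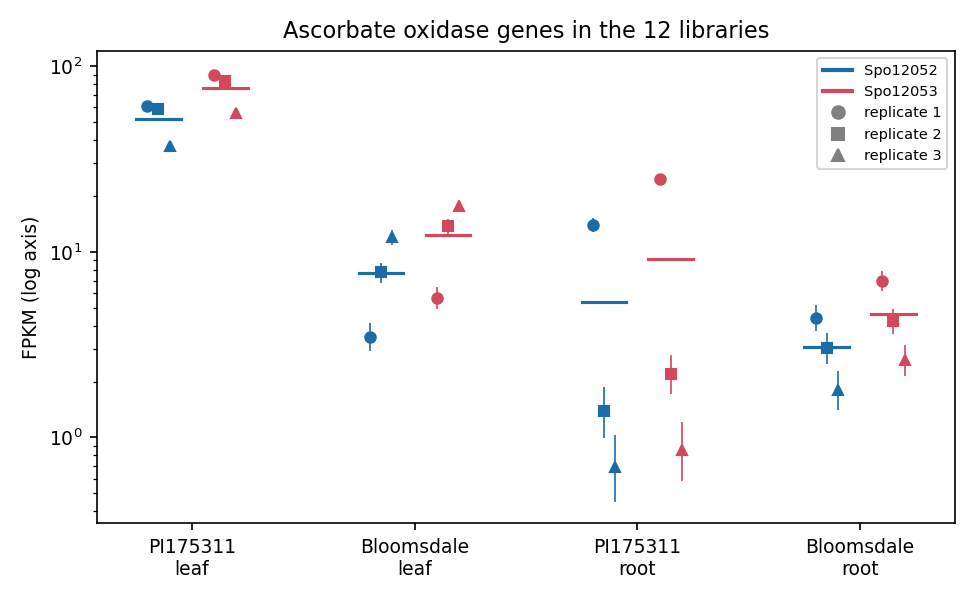
FPKM of Spo12052 (blue) and Spo12053 (red) on a log axis in each of the 12 libraries, by genotype and tissue. Points are libraries with exact Poisson 95% intervals of their fragments, marker shapes give the replicate number and short lines are group means. PI175311 leaves sit at 37.3 to 89.9 FPKM and apart from all other groups, and the PI175311 roots spread most widely.

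As group means, Spo12052 averaged 52.2 ± 12.9 FPKM in PI175311 leaves and 7.74 ± 4.26 FPKM in Bloomsdale leaves (SD, n = 3 each). Spo12053 averaged 76.5 ± 18.0 FPKM in PI175311 leaves and 12.3 ± 6.10 FPKM in Bloomsdale leaves (SD, n = 3 each). The mean was thus 6.75-fold higher for Spo12052 and 6.21-fold higher for Spo12053 in the leaf of PI175311. In roots, Spo12052 averaged 5.34 ± 7.46 FPKM in PI175311 and 3.08 ± 1.32 FPKM in Bloomsdale, and Spo12053 averaged 9.20 ± 13.3 FPKM in PI175311 and 4.60 ± 2.19 FPKM in Bloomsdale (SD, n = 3 each). In PI175311 roots the SD exceeded the mean for both genes. The descending order of group means was the same for both genes, namely PI175311 leaf, Bloomsdale leaf, PI175311 root and Bloomsdale root, and of the neighbours in this order PI175311 leaf and Bloomsdale leaf alone did not overlap. The place of PI175311 root above Bloomsdale root rested on root 1, as the median root had 1.38 FPKM of Spo12052 in PI175311 and 3.02 FPKM in Bloomsdale, and 2.198 FPKM of Spo12053 in PI175311 and 4.23 FPKM in Bloomsdale.

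The place of the genes among all genes moved with the group. In PI175311 leaves, the mean of Spo12053 was above that of 93.29% and the mean of Spo12052 above that of 89.92% of the 16764 genes tested in leaf. In Bloomsdale leaves these shares were 57.41% for Spo12053 and 43.25% for Spo12052. Among the 18197 genes tested in root, Spo12053 stood above 45.44% in PI175311 and 23.16% in Bloomsdale, and Spo12052 above 30.54% in PI175311 and 15.37% in Bloomsdale. Both genes were therefore high among all genes in the leaf of PI175311 and below the middle in the roots.

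The genotype difference in leaf passed the test for both genes. On the log2(FPKM + 0.1) scale, Spo12052 was 2.87 higher in PI175311 leaves (SE 0.45, 95% interval 1.83 to 3.92, Benjamini-Hochberg adjusted p = 0.00856 with limma). The difference of Spo12053 was 2.74 (SE 0.43, 95% interval 1.75 to 3.74, adjusted p = 0.00847 with limma). Both of the 2 genes were called higher, beside 10.1% of all 16764 genes tested called in either direction and 4.04% higher and 6.08% lower in PI175311. Ranked by signed change, Spo12052 was number 290 and Spo12053 number 339, while the median change of all tested genes was −0.12. The study named these genes for their leaf difference in these same libraries, so the test is not independent evidence of its direction. In 1 fit over all 12 libraries, which pools the spread of leaves and roots, the same differences were no longer past the threshold of 0.05, with adjusted p = 0.0544 for Spo12052 and 0.0830 for Spo12053 by limma.

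The genotype difference in root did not pass the test for either gene. The change was −0.23 for Spo12052 on the log2(FPKM + 0.1) scale (SE 1.08, 95% interval −2.84 to 2.38, adjusted p = 0.907 with limma). For Spo12053 it was −0.21 (SE 1.19, 95% interval −3.09 to 2.68, adjusted p = 0.926 with limma). In root, 12.6% of the 18197 tested genes were called, 2.93% higher and 9.7% lower in PI175311, and the median change was −0.23. These intervals hold changes of several fold in both directions, so they do not show that the genotypes were alike. The sign itself rested on single libraries. Without root 1 of PI175311 the change was −1.46 for Spo12052 and −1.56 for Spo12053 (adjusted p = 0.147 and 0.161 with limma), and without root 3 of PI175311 it was 0.61 and 0.79.

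Whether the genotype difference was larger in leaf than in root was tested as an interaction over all 12 libraries. The leaf difference exceeded the root difference by 3.10 for Spo12052 (SE 1.24, unadjusted p = 0.0296, adjusted p = 0.241 with limma). For Spo12053 the excess was 2.95 (SE 1.35, unadjusted p = 0.0511, adjusted p = 0.307 with limma). Neither of the 2 genes was called, beside 2.26% of the 19549 genes tested, 1.49% with the more positive difference in leaf and 0.767% with the more negative. Without root 1 of PI175311 the excess was 4.34 for Spo12052 and 4.30 for Spo12053, with adjusted p = 0.0182 and 0.0204 by limma, so 1 library decided this call for both genes.

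**Figure D2:**
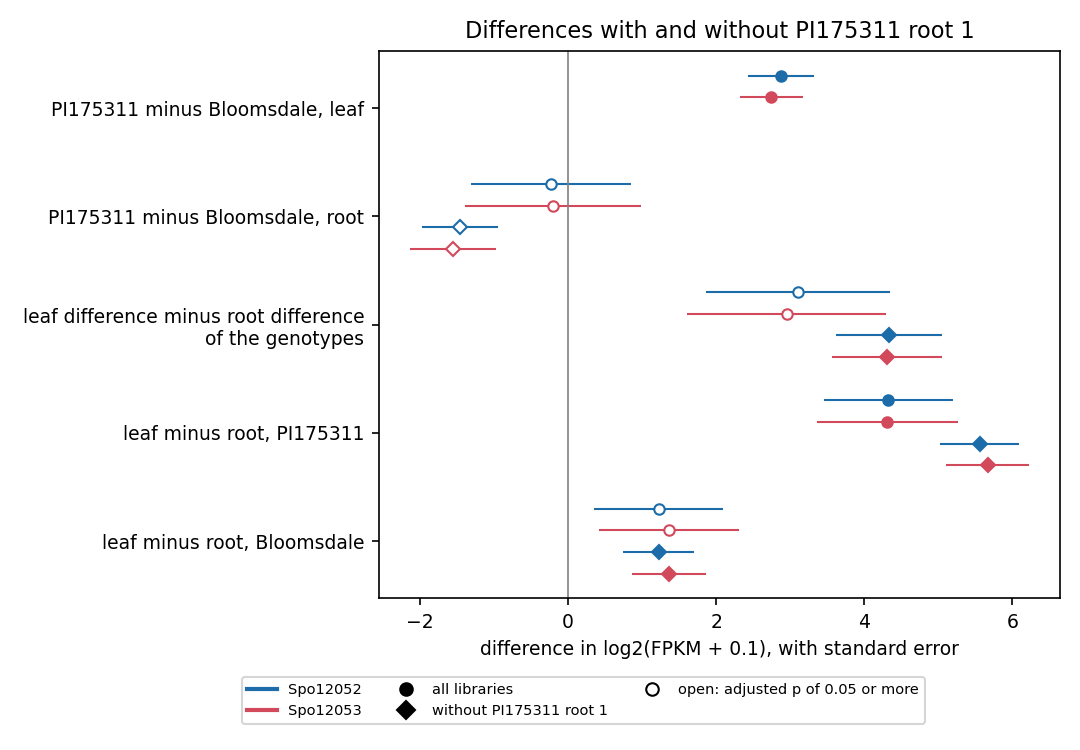
Differences of log2(FPKM + 0.1) of Spo12052 (blue) and Spo12053 (red) for each comparison, with standard errors from limma. Circles use all libraries and diamonds leave out root 1 of PI175311, and filled symbols have a Benjamini-Hochberg adjusted p under 0.05. Leaving out that library takes the genotype difference in root to −1.46 and −1.56 and fills the symbols of the interaction and of leaf against root in Bloomsdale.

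Preference for leaf over root was large in PI175311. All 3 leaves were above all 3 roots of PI175311 for both genes, although root 1, with 13.9 FPKM of Spo12052 and 24.6 FPKM of Spo12053, lay far nearer to the leaves than roots 2 and 3. The leaf mean was 9.78 times the root mean for Spo12052 and 8.31 times for Spo12053, whereas the leaf median was 42.3 times the root median for Spo12052 and 38.0 times for Spo12053. In the fit over 12 libraries, leaf exceeded root by 4.33 for Spo12052 (SE 0.88, adjusted p = 0.00159) and by 4.31 for Spo12053 (SE 0.95, adjusted p = 0.00263), both on the log2(FPKM + 0.1) scale by limma. Both genes were called higher in leaf, in a comparison where 63.4% of the 19549 tested genes were called, 15.9% higher and 47.5% lower in leaf. The median change of all tested genes was −0.64 on the same scale. Without root 1 the difference was 5.56 for Spo12052 and 5.67 for Spo12053. The standard error here is pooled with the other groups, which spread less than the PI175311 roots. In a fit on the 6 PI175311 libraries alone, added after the values were seen, it was 1.01 for Spo12052 and 1.12 for Spo12053. The adjusted p was 0.0121 and 0.0173 by limma, so both genes were still called higher.

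In Bloomsdale the leaves and roots overlapped for both genes. The lowest leaf of Bloomsdale, leaf 1, had 3.48 FPKM of Spo12052, against 4.43 FPKM in the highest root, root 1. For Spo12053 the same libraries had 5.65 FPKM in leaf 1 and 6.96 FPKM in root 1. The leaf mean was 2.51 times the root mean for Spo12052 and 2.68 times for Spo12053. The limma difference was 1.22 for Spo12052 (SE 0.88, 95% interval −0.71 to 3.15, adjusted p = 0.239) and 1.36 for Spo12053 (SE 0.95, 95% interval −0.74 to 3.46, adjusted p = 0.227). Neither of the 2 genes was called, beside 64.6% of all tested genes called, 14.6% higher and 50% lower in leaf. The standard error here is pooled with the PI175311 roots. Without root 1 of PI175311 the same differences had adjusted p = 0.0439 for Spo12052 and 0.0339 for Spo12053 by limma, and in a fit on the 6 Bloomsdale libraries alone, added after the values were seen, adjusted p = 0.0644 and 0.0429. Scaling moved the size, to 1.85 for Spo12052 and 2.00 for Spo12053 with median-of-ratios scaling and to 2.02 and 2.06 with quantile normalization, with no call.

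The spread among PI175311 roots was among the widest of all genes. Root 1 had 10.1 times the Spo12052 level of root 2 and 20.1 times that of root 3. For Spo12053 root 1 was 11.2-fold above root 2 and 28.8-fold above root 3. Root 2 in turn exceeded root 3 by 1.99-fold for Spo12052 and 2.58-fold for Spo12053. The SD of log2(FPKM + 0.1) over the 3 roots was 2.18 for Spo12052 and 2.43 for Spo12053, where the median of all genes tested in root was 0.350. That median was 0.207 in Bloomsdale roots. Replicates correlated at 0.938 to 0.954 in PI175311 roots and at 0.973 to 0.989 in Bloomsdale roots, so PI175311 roots were less alike over all genes too. An SD as large was found for 407 genes (2.24%) in the case of Spo12052 and 291 genes (1.60%) in the case of Spo12053. These levels rested on 555, 41 and 25 fragments of Spo12052 in roots 1, 2 and 3 and on 1021, 68 and 32 fragments of Spo12053.

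**Figure D3:**
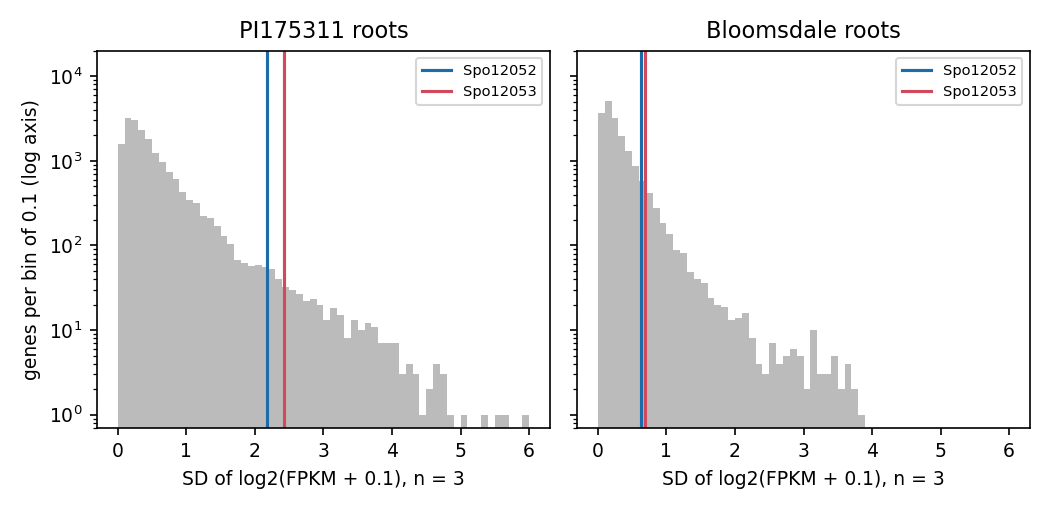
Distribution over the 18197 genes tested in root of the SD of log2(FPKM + 0.1) among 3 roots, for PI175311 on the left and Bloomsdale on the right, with gene numbers on a log axis. Vertical lines mark Spo12052 (blue) at 2.18 and Spo12053 (red) at 2.43 in PI175311 and at 0.63 and 0.69 in Bloomsdale.

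The other groups were narrower but not all tight. The SD on the log2 scale was 0.39 for Spo12052 and 0.37 for Spo12053 in PI175311 leaves, a little above the median of 0.29 over all genes tested in leaf. In Bloomsdale leaves it was 0.89 for Spo12052 and 0.85 for Spo12053, and 7.53% and 8.37% of genes had one as large. In Bloomsdale roots it was 0.63 for Spo12052 and 0.69 for Spo12053, with 10.2% and 8.48% of genes as large. Both genes thus varied between plants more than the median gene in every group, and least so in the leaf of PI175311.

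Root 1 of PI175311 also stood above all Bloomsdale roots, 3.15-fold above the highest for Spo12052 and 3.53-fold for Spo12053. Of the 18197 genes tested, 135 (0.742%) had root 1 as far above both other PI175311 roots as Spo12052, and 113 (0.621%) as far as Spo12053, with 0.1 FPKM added. The same measure on root 2 gave 75 and 63 genes, and on root 3 it gave 35 and 29 genes, so single PI175311 roots with far higher levels of a gene were not particular to root 1.

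The leaf genes were set beside the pair in this library. They held 0.270% of all FPKM in root 1 of PI175311, against 0.0846% in root 2 and 0.104% in root 3. As a share of the PI175311 leaf mean, root 1 reached 26.7% for Spo12052 and 32.1% for Spo12053, while the summed leaf genes reached 1.52%. Root 2 reached 2.65% for Spo12052, 2.87% for Spo12053 and 0.457% for the summed leaf genes, and root 3 reached 1.33%, 1.11% and 0.608%. The median over the leaf genes was 1.40% in root 1, 0.164% in root 2 and 0.0752% in root 3. The typical leaf gene was thus also far higher in root 1 than in the other PI175311 roots. The leaf genes were chosen in Bloomsdale for a leaf level at least 100 times the root level. A root share below that of the pair was therefore largely fixed by their choice, and no conclusion is drawn from it. In Bloomsdale roots the shares were 23.2% to 57.2% for Spo12052 and 21.2% to 56.4% for Spo12053, and no comparison is made there, since the leaf genes were chosen for their low level in these roots.

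The ratio of the genes to each other hardly changed while their levels did. Spo12052 had fewer FPKM than Spo12053 in all 12 libraries. The ratio of Spo12052 to Spo12053 was 0.676, 0.701 and 0.666 in PI175311 leaves, against 0.615, 0.565 and 0.681 in Bloomsdale leaves. It was 0.568, 0.630 and 0.816 in PI175311 roots, against 0.637, 0.715 and 0.687 in Bloomsdale roots. The mean of the 12 libraries was 0.663 ± 0.0684 (SD), over levels of Spo12053 that ran between 0.852 and 89.9 FPKM. The highest ratio, in root 3 of PI175311, rested on 25 and 32 fragments and had a 95% counting interval of 0.464 to 1.42. Root 1 of PI175311, on 555 and 1021 fragments, had an interval of 0.511 to 0.630. Leaf 2 of Bloomsdale, on 254 and 470 fragments, had one of 0.483 to 0.659. Both of these lay below the mean of the 12 libraries, and the intervals of all other libraries held it. The counting intervals cover counting error only. A chi-square test of the fragments of both genes against 1 common ratio gave 19.0 on 11 degrees of freedom (p = 0.0618). This is a variance 1.72 times that of counting error, and it did not pass the threshold.

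**Figure D4:**
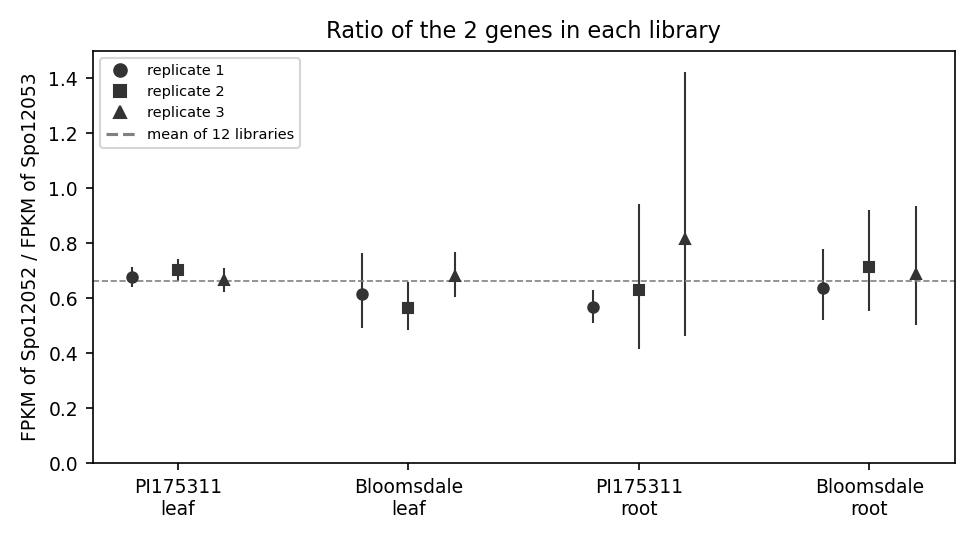
Ratio of the FPKM of Spo12052 to that of Spo12053 in each library, by genotype and tissue. Bars are 95% intervals of counting error, marker shapes give the replicate number and the dashed line is the mean of 12 libraries, 0.663. The ratios lie between 0.565 and 0.816, and the widest bar belongs to root 3 of PI175311.

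No difference in the ratio passed a test. The mean ratio was 0.681 ± 0.018 in PI175311 leaves and 0.620 ± 0.0585 in Bloomsdale leaves, a difference of 0.14 in log2 ratio (SD, n = 3 each, exact permutation p = 0.30). In roots it was 0.671 ± 0.129 in PI175311 and 0.679 ± 0.0396 in Bloomsdale, a difference of −0.03 (SD, n = 3 each, exact permutation p = 0.90). Between leaf and root, the log2 ratio differed by 0.04 in PI175311 (exact permutation p = 0.80) and by −0.13 in Bloomsdale (exact permutation p = 0.20). With genotype labels exchanged within tissues the difference was 0.05 (exact permutation p = 0.585), and with tissue labels exchanged within genotypes it was −0.05 (exact permutation p = 0.61). These 6 two-sided tests had Benjamini-Hochberg adjusted p = 0.90 each. Exact tests of 3 libraries against 3 cannot go below 0.10, and the tests over 12 libraries cannot go below 0.005.

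Within groups the genes moved together. After removal of the group means, their deviations of log2(FPKM + 0.1) correlated with Pearson r = 0.996 and Spearman rho = 0.972 over 12 libraries, each with an exact permutation p = 0.000772, the smallest that 1296 arrangements can give. Without root 1 and root 3 of PI175311, the libraries farthest from the median, r was 0.991 and rho was 0.952 (exact permutation p = 0.00463 for each, the smallest that 216 arrangements can give). The sources do not state how reads that match more than 1 gene were treated, and no sequence of either gene was used here, so it could not be checked whether the genes share reads. The part of shared reads in the ratio was not tested.

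Plants with the same replicate number gave genotype ratios that varied in the same way for both genes. In leaf, PI175311 over Bloomsdale was 17.5, 7.57 and 3.11 for Spo12052, and 15.9, 6.09 and 3.18 for Spo12053. In root it was 3.15, 0.459 and 0.387 for Spo12052, and 3.53, 0.520 and 0.326 for Spo12053. In each tissue the ratio was highest at number 1 and lowest at number 3. Within a group the numbers name separate plants and carry no order. Whether a leaf and a root of the same number came from 1 plant is not stated in the sources used. The main tests of leaf against root and of the interaction treated them as separate. Whether equal numbers link plants of the genotypes could not be settled, so the same-number ratios may be arbitrary matches in both tissues. The main root test used no pairing. With a replicate block the root difference had SE 0.68 for Spo12052 and 0.72 for Spo12053 (adjusted p = 0.836 and 0.864 by limma), with no call.

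Many genes elsewhere in the table had the same profile over the libraries. For Spo12052, its partner Spo12053 ranked first of 19548 genes in correlation of log2(FPKM + 0.1) over the 12 libraries (r = 0.998), and Spo12052 ranked number 3 for Spo12053. Correlations over these libraries are descriptions only, since the points share groups and libraries. The 5 genes most like the mean of the pair were Spo24109 (r = 0.998), Spo25668 (r = 0.998), Spo03151 (r = 0.997), Spo03538 (r = 0.997) and Spo14500 (r = 0.997), none of which is given a function in the sources used. Their log2 difference to the pair varied over the 12 libraries with an SD of 0.146 to 0.183, while their levels differed from each other. Spo25668, the highest of them, averaged 107.9 FPKM in PI175311 leaves, 16.5 FPKM in Bloomsdale leaves, 11.8 FPKM in PI175311 roots and 6.23 FPKM in Bloomsdale roots. Spo24109, the lowest, averaged 15.4 FPKM in PI175311 leaves, 2.50 FPKM in Bloomsdale leaves, 1.80 FPKM in PI175311 roots and 0.861 FPKM in Bloomsdale roots. In root 1 of PI175311, Spo25668 had 30.3 FPKM, against 3.33 in root 2 and 1.61 in root 3.

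**Figure D5:**
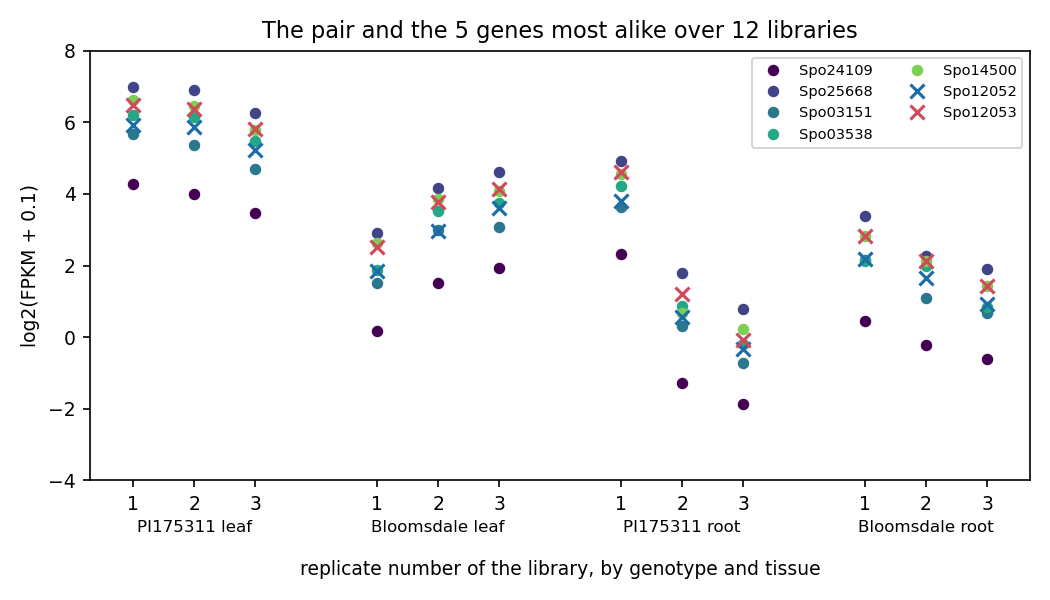
Level as log2(FPKM + 0.1) in each of the 12 libraries, by genotype, tissue and replicate number, for Spo12052 and Spo12053 (crosses) and the 5 genes with the highest correlation to their mean (dots). All the genes run nearly parallel, with r of 0.997 or 0.998, the highest values in PI175311 leaves and a raised root 1 in PI175311.

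The profile was shared by 168 of 19547 genes at r of at least 0.9, by 126 genes at 0.95 and by 36 genes at 0.99. Each of the 168 genes had its highest group mean in the leaf of PI175311. Of the 126 genes, 106 were at least 5 times as high in root 1 as in either other root of PI175311. Both features go with the choice of genes by likeness to a pair that has them. Their shares over all genes were not counted. Summed, the 126 genes made up 0.474%, 0.392% and 0.264% of all FPKM in PI175311 leaves, against 0.030%, 0.0797% and 0.0971% in Bloomsdale leaves. They made up 0.151%, 0.0165% and 0.0085% in PI175311 roots, against 0.047%, 0.032% and 0.0195% in Bloomsdale roots. These genes were chosen by their values in the same libraries, so nothing is tested with them. Of the 112 other genes with root 1 of PI175311 raised as far as for Spo12053, 19 belonged to the 168 genes, which is 17.0% of the first list and 11.3% of the second. Of all 18197 genes tested in root, 0.621% had root 1 raised as far. Both lists were chosen by likeness to the pair in the same libraries, so an overlap follows from the choice and is not a result.

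The genes with the 5 numbers before and after the pair did not share the profile. Their correlation with the pair ran between −0.776 and 0.598, leaving out Spo12049, which had no fragments in any library. Spo12051, the number just before, averaged 6.73 FPKM in PI175311 leaves and 7.13 FPKM in Bloomsdale leaves. Spo12054, the number just after, averaged 3.31 FPKM in PI175311 leaves and 2.95 FPKM in Bloomsdale leaves. Adjacent numbers need not be adjacent positions, and the positions were not used here.

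A list of 13 other genes with named roles in oxalate metabolism was set beside the pair. Of 8 that passed the filter in leaf, 3 were called higher in PI175311 and 0 lower with limma, with a median change of 0.98, against 4.04% and 6.08% of all tested genes. Of 9 tested in root, 1 was called higher and 0 lower, with a median change of 0.16, against 2.93% and 9.7% of all tested genes. The study chose this list with these libraries in hand, so the direction in leaf is not independent. The interaction was called for 1 of 12 tested, the isocitrate lyase gene Spo13898, against 2.26% of all tested genes. That gene passed the filter through its roots alone. Between tissues, 2 of 12 were called higher and 3 lower in leaf in PI175311, where 15.9% and 47.5% of all tested genes were. In Bloomsdale 2 were called higher and 5 lower in leaf, against 14.6% and 50% of all tested genes.

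Ascorbate peroxidase Spo08328, the other gene of ascorbate oxidation in the list, was far more abundant than the pair. It had 3531, 1330 and 3723 FPKM in PI175311 leaves, against 386.0, 226 and 180 FPKM in Bloomsdale leaves. In roots it had 897, 984 and 2026 FPKM in PI175311, against 238, 99.8 and 418 FPKM in Bloomsdale. Unlike the pair, the peroxidase did not overlap between genotypes in root. It was 3.37 higher in PI175311 in leaf (SE 0.47, adjusted p = 0.0044) and 2.50 higher in root (SE 0.59, adjusted p = 0.0456), on the log2(FPKM + 0.1) scale with limma.

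The peroxidase did not follow the pair from plant to plant. Its FPKM over the summed FPKM of the pair was 23.4, 9.35 and 39.9 in PI175311 leaves, against 42.3, 10.5 and 6.07 in Bloomsdale leaves. It was 23.3, 275 and 1309 in PI175311 roots, against 20.9, 13.8 and 94.6 in Bloomsdale roots. The root of PI175311 with the most ascorbate oxidase, root 1, thus had the least peroxidase of its group. AAE3 (Spo04424), an oxalyl-CoA synthetase that begins a route of oxalate breakdown, had 104.9, 77.0 and 121.4 FPKM in PI175311 leaves, against 63.6, 78.0 and 37.9 FPKM in Bloomsdale leaves. In roots AAE3 had 127.1, 121.1 and 79.3 FPKM in PI175311, against 71.8, 65.9 and 61.4 FPKM in Bloomsdale, without overlap. Its difference was 0.79 in leaf (adjusted p = 0.142) and 0.69 in root (adjusted p = 0.0823) with limma, neither past the threshold. The study reported AAE3 as significantly upregulated by qPCR in both tissues of PI175311, with a trend in its RNA-seq.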

How the data were processed

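Paired-end RNA-seq libraries were made from the leaf lamina and the root of 3 plants of PI175311 and 3 of Bloomsdale per tissue. The authors deposited 1 table of FPKM for 25495 genes, computed from fragments per gene, gene length and library total. The study's methods name TopHat with HTSeq and DESeq, and the submitters' processing notes list DESeq2, featureCounts, HISAT2 2.1.0 and fastp. The sources do not state which set of tools made the values, and the genome build is not given in the sources used here. If reads matching several genes were dropped or shared, levels of close copies would be affected.

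Whole fragments, library totals (18451262 to 25245734 fragments) and gene lengths were solved from each gene's 12 FPKM values. For each of the 21554 genes with values over 0 in 6 or more libraries a solution was found within 0.0001 fragments, and 99.949% of their lengths came out whole within 0.02 bases. These fragments gave depth, exact Poisson 95% intervals for counting error and the limma-voom alternative. None of the gene identifiers matched the RefSeq table (0 of 25495), and no sequence was printed.

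Groups were taken from the cultivar and tissue labels. Within a tissue, the genotypes were compared by limma (version 3.58.1, R version 4.3.3) with log2(FPKM + 0.1) as response and the trend and robust options. A gene was tested where 3 or more of the 6 libraries reached 1 FPKM. FPKM are not counts, so this stood in for the count test of the study. Interaction and tissue contrasts came from 1 fit over 12 libraries with 4 groups and the same filter. P-values were two-sided, with Benjamini-Hochberg adjustment across every gene tested and 0.05 as threshold. Log2 ratios of the pair and deviations from group means were tested by exact permutation in scipy 1.17.1, with pandas 2.3.3, numpy 2.4.6 and Python 3.11.15 underneath, and plots used matplotlib 3.10.9. The limma step was tested on simulated data. Adding 0.1 FPKM understates changes of low genes. Replicate numbers were checked for pairing between genotypes. Deviations from group means correlated at 0.247, 0.216 and 0.273 over genes for roots 1, 2 and 3, and at 0.0559, −0.203 and −0.198 for leaves. With 3 libraries per group few matchings exist and no test of them was run, so pairing was not settled. Between leaf and root of the same number, they correlated at 0.0424, −0.1815 and −0.1825 in PI175311. In Bloomsdale these values were −0.146, 0.2641 and 0.3184. The alternative that blocks on replicate number was run for every comparison.

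The genes named are the pair, the 13 genes of oxalate metabolism for which the study prints a function, with values for Spo08328 and AAE3, the 5 genes most correlated with the pair mean, and the 5 gene numbers on either side. The pair, the lists and the tests were chosen with earlier results of these data known. Alternatives were a pseudocount of 1 or 0.01 FPKM, a filter at a mean of 5 FPKM or none, quantile or median-of-ratios scaling, limma without trend and robust options, the replicate block, limma-voom, 1 fit over 12 libraries, each library left out and, added after seeing the data, tissue contrasts on 1 genotype alone.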

Additional observations from a re-analysis of the deposited data

Results flagged for a closer look

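The isocitrate lyase gene Spo13898, whose enzyme cleaves isocitrate to glyoxylate and succinate, had a genotype difference that differed between tissues by the test of the interaction itself. The leaf difference exceeded the root difference by 3.56 on the log2(FPKM + 0.1) scale (SE 0.66, Benjamini-Hochberg adjusted p = 0.0241 with limma). Every leaf of either genotype was under 1 FPKM of this gene, so its roots alone brought it past the filter of that test. The size of the leaf difference therefore depends on the 0.1 FPKM added, and no other amount was tried for this gene. It averaged 0.576 FPKM in PI175311 leaves and 0.0066 FPKM in Bloomsdale leaves, where 1 fragment was found in all, and 5.90 FPKM in PI175311 roots and 13.2 FPKM in Bloomsdale roots. Its genotype difference was not tested in leaf, where it missed the filter, and was not called in root, with an adjusted p of 0.171 with limma. The study, with its own count test, reported this gene as upregulated in the leaf of PI175311. The absence of a leaf call here thus comes from the filter and says nothing against that difference.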

How the results depend on the processing

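Of 193 alternatives run for the limma results of the pair, 176 kept direction and side of the threshold. The leaf difference kept its direction in all 16 alternatives per gene, at 2.39 to 3.27 for Spo12052 and 2.26 to 3.07 for Spo12053 with single libraries left out, and lost its call only in 1 fit over all 12 libraries (2.87, adjusted p = 0.0544, and 2.74, adjusted p = 0.0830, by limma). The uncalled root difference changed sign with quantile normalization (0.14 for Spo12052 and 0.13 for Spo12053), for Spo12053 also with 1 FPKM added (0.003) and with median-of-ratios scaling (0.0191), and with libraries left out, where it ran between −1.46 and 0.61 for Spo12052 and between −1.56 and 0.79 for Spo12053. The interaction ran between 2.26 and 4.34 for Spo12052 and between 1.96 and 4.30 for Spo12053 with libraries left out, and leaf against root in Bloomsdale between 0.82 and 1.70 and between 1.02 and 1.84, with up to 2.02 and 2.06 under quantile normalization. Leaf against root in Bloomsdale was called for Spo12053 on the 6 Bloomsdale libraries alone (1.36, adjusted p = 0.0429 by limma). Leaf against root in PI175311 was called in all 22 alternatives per gene, at 3.49 to 5.56 for Spo12052 and 3.32 to 5.67 for Spo12053 with libraries left out and at 3.73 for Spo12052 with 1 FPKM added.

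With libraries left out, the log2 ratio difference ran between −0.18 and 0.080 between genotypes in root, −0.075 and 0.19 between tissues in PI175311, −0.022 and 0.11 between genotypes within tissues and −0.10 and 0.027 between tissues within genotypes. With 1 FPKM added to both genes it was −0.10 between tissues in PI175311. None of these passed a test.

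With the replicate block, the root difference had adjusted p = 0.836 for Spo12052 and 0.864 for Spo12053 and the leaf difference 0.00417 and 0.00216 by limma, and no call of the pair changed. Over all genes, calls in leaf were 678 higher and 1020 lower, and the alternatives other than leaving out libraries gave 402 to 1018 and 586 to 1692. In root they were 534 and 1765, with 369 to 700 and 764 to 2190, the 369 with a mean of at least 5 FPKM and the 764 under median-of-ratios scaling. For the interaction 292 and 150 genes were called, with 96 to 639 and 49 to 303. Leaving out single libraries gave 161 to 996 higher and 240 to 1427 lower in leaf, 97 to 406 and 42 to 1773 in root, and 46 to 628 and 28 to 217 for the interaction. Median-of-ratios scaling gave 4440 higher and 4986 lower in leaf against root in Bloomsdale, where 2853 and 9783 were called, and 4966 lower in PI175311, where 9295 were called. With 25 to 68 fragments per gene in roots 2 and 3 of PI175311, depth limits the ratio there, while 3 plants per group limit the genotype and tissue comparisons.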
